A study of Mus musculus with 6 samples.

Results

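The genes described here are those of DNA replication and the cell division cycle in mIMCD3 cells, an established mouse line from the inner medullary collecting duct. They were taken by gene symbol: the MCM helicase and origin recognition subunits, the Cdc, Cdk and Cdkn genes other than those whose symbol starts with Cdc42, cyclins of types A, B and E, E2F factors, checkpoint, Bub and Aurora kinases, ribonucleotide reductase, and Pcna, Birc5, Ttk, Wee1 and Plk1. The symbols picked 100 of 12422 probe sets, for 75 genes, on a single-colour oligonucleotide array. Per the labels, mIMCD3 cells received aldosterone or vehicle for 1 h in 3 repeats of the experiment, called replications, and each replication gave 1 array per treatment. Both groups are thus the same line and differ by the hormone, the dose of which is not given in the sources used here. As background, the line was derived from a mouse that carries a viral large T antigen, a protein that binds the retinoblastoma protein and p53, so its cell cycle is not that of a normal tubule.

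As background, DNA replication is prepared in G1, when the origin recognition complex and Cdc6 load the MCM helicase onto origins, and it starts when the kinases Cdc7 and Cdk2 activate that helicase with Cdc45. E2F factors, held back by the retinoblastoma family, drive transcription of many of these genes at the G1/S transition, and CDK inhibitors restrain the kinases. The genes of mitosis (Cdk1 with its B-type cyclins, the Aurora and Polo-like kinases, and the spindle checkpoint) are transcribed later, in G2. Aldosterone is an adrenal steroid that acts through a nuclear receptor in the collecting duct to raise sodium reabsorption.

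Deposited intensities were multiplied to a common 2% trimmed mean, since the aldosterone array of replication 3 was on a scale 28.8 times lower than the others, and are given here as scaled intensities in the order of replications 1, 2 and 3. After scaling, the median of all probe sets lay between 747 and 843 on the aldosterone arrays and between 791 and 809 on the vehicle arrays. The median of the tested members lay between 3022 and 3598 on the aldosterone arrays and between 3129 and 3461 on the vehicle arrays. The closest array to each one, by correlation, was its partner from the same replication. Epithelial identity was checked with 7 of 8 markers measured bright enough to test, among them Krt8, at a mean of 17460 with aldosterone and 19390 with vehicle, and Cdh1, at 2445 and 2611. Aqp2, the water channel that defines principal cells of the collecting duct, was too dim to test, at 335 with aldosterone and 208 with vehicle, as were all 4 endothelial markers. The 8 epithelial markers summed to 46910 to 68560 with aldosterone and 51140 to 71680 with vehicle. The summed level of 6 fibroblast markers was 5599 to 7325 with aldosterone and 5707 to 9286 with vehicle, and that of 5 leukocyte markers 5248 to 6583 with aldosterone and 5588 to 8178 with vehicle, most of it Cd14. The 4 endothelial markers summed to 413 to 1110 with aldosterone and 783 to 819 with vehicle. The brightest fibroblast marker, Col1a2, was brighter than Cdh1, at 4126 with aldosterone and 4590 with vehicle. The 3 proximal tubule markers summed to 1122 to 1669 with aldosterone and 1211 to 1649 with vehicle. Of these only Lrp2 was bright enough to test, at 866.8 with aldosterone and 858.5 with vehicle. No array measured cell number or cell cycle phase, so a change in the share of cells in a phase and a change in RNA per cell cannot be told apart.

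A filter on dim probe sets, a mean log2(intensity + 53.0) of at least 8.87, was passed by 81 of the 100 probe sets, for 67 genes. The other 19, with mean intensities of 45.8 to 359, left 8 genes without a tested value: Cdkn1b, Mcm6, Ccna1, Ccne2, Ccnb1ip1, Cdk14, Cdk5r1 and Cdk5r2. The dimmest probe sets that were tested belonged to Cdc73, at 469 with aldosterone and 429 with vehicle, and E2f3, at 496 and 458. The brightest ones not tested were a probe set of Cdkn1b, at 316 with aldosterone and 403 with vehicle, and one of Bub3, at 254 and 444. Log2 differences below are aldosterone minus vehicle on the log2(intensity + 53.0) scale, which understates the change of dim probe sets.

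After 1 h of aldosterone no tested transcript of the replication and division machinery differed from vehicle beyond the spread between arrays. In limma's fit of all 7453 tested probe sets, 0 of the 81 member probe sets had an adjusted p under 0.05, where 0% of all tested probe sets did. None reached an unadjusted p under 0.05 either, against 0.966% of all tested probe sets, and the adjusted p of every tested member was 0.9995. This fit left the differences between replications in its error. With the replication as a block, given below, the share of all tested probe sets was 3.35%. The plain two-sample test on the same values also called 0 members, adjusted or not. Log2 differences ran from -0.45, for a probe set of E2f1, to 0.46, for Cdkn2a, so no tested member differed by 1.5-fold, which 2.32% of all tested probe sets did. Of the 81, 45 were higher and 36 lower by sign (55.6% higher, where 49.9% of all tested probe sets were higher and 50.1% lower), and the median log2 difference was 0.019, against -0.00029 over all tested probe sets.

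The error of these differences sets what could have been seen. The 95% confidence interval of a member's log2 difference extended 0.411 to either side at the median, and for 49 of the 81 probe sets it lay wholly inside 1.5-fold in either direction. For 80 of the 81 it lay inside 2-fold, the exception being Cdkn2a, with an interval of -0.32 to 1.24. With the replication as a block, which takes the differences between repeats of the experiment out of the error, the intervals of 66 lay inside 1.5-fold and those of 81 inside 2-fold. These intervals are for single probe sets and are not adjusted. A 2-fold change of a lone member need not have passed the threshold adjusted over all tested probe sets. Smaller shifts of single genes were not detectable with 3 arrays a group.

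In that blocked fit 0 members had an adjusted p under 0.05, where again 0% of all tested probe sets did, and the adjusted p of every tested member was 0.9978. An unadjusted p under 0.05 was reached by 3 members, or 3.70%, where 3.35% of all tested probe sets reached it, which is a share near the background. They were Cdkn2a, higher, and Cdk9 and Cdkn2aipnl, lower. In all 3 replications 9 members (11.1%) were higher and 11 (13.6%) were lower, where 10.5% and 11.5% of all tested probe sets were.

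**Figure D1:**
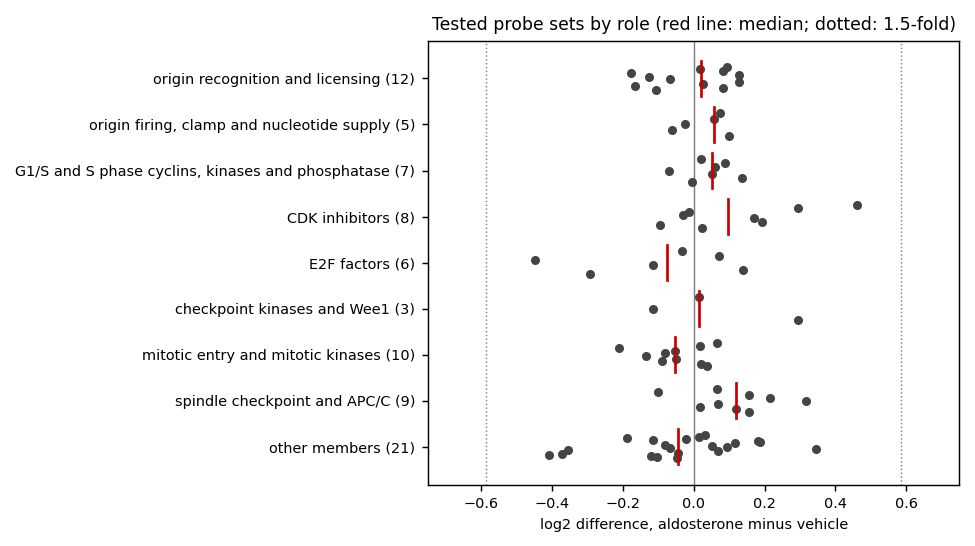
Log2 differences, aldosterone minus vehicle, of the 81 tested member probe sets (points) by role, with the median of each role as a red line, the number of probe sets in brackets and dotted lines at 1.5-fold. All points lie between -0.45 and 0.46, inside the dotted lines, and the role medians lie between -0.075 and 0.12.

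The machinery that prepares origins for replication was measured with 12 tested probe sets of 11 genes, of which 0 passed the test. By sign 7 were higher and 5 lower, and the median log2 difference was 0.022. The MCM proteins form a ring of 6 related subunits that unwinds DNA at the fork, and 5 of the 6 were tested. Mcm2 had 11490.4, 12907 and 10335 with aldosterone, against 12232, 10808 and 9761 with vehicle, a log2 difference of 0.082 (standard error 0.141). Mcm4 had 15357, 16559.7 and 13867 with aldosterone, against 16941, 20464 and 14721 with vehicle, a log2 difference of -0.18 (standard error 0.147). The values of both groups overlapped for each of these subunits, and Mcm4 was lower with aldosterone in all 3 replications, by log2 differences of -0.14, -0.30 and -0.086. Mcm5 had 15856, 17156 and 12871 with aldosterone, against 13937, 16549 and 12749.6 with vehicle, a log2 difference of 0.084 (standard error 0.152), and was higher in all 3 replications. Mcm7 had 15848, 18008 and 13028 with aldosterone, against 17346, 16627 and 12399.7 with vehicle, a log2 difference of 0.019 (standard error 0.17). Mcm5 and Mcm7 also overlapped between the treatments. The brighter Mcm3 probe set had 20663, 20497 and 25106 with aldosterone, against 23048, 20825 and 25424 with vehicle, a log2 difference of -0.066 (standard error 0.131), and the dimmer one had 10558, 10580.2 and 14384 with aldosterone, against 12797, 10395 and 15065 with vehicle, with -0.11 (standard error 0.178). Subunits of the same ring thus lay on both sides of 0 by less than their standard errors, with the exception of Mcm4, whose difference exceeded its standard error. Mcm6 was dim, with 199.8, 113 and 87 with aldosterone, against 68.8, 101 and 102 with vehicle.

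Cdc6, the loading factor that brings the ring to origins, had 6875, 6981 and 8609 with aldosterone, against 6885, 6877 and 8275 with vehicle, a log2 difference of 0.025 (standard error 0.148). Orc1, the subunit that gives the origin recognition complex much of its ATPase activity, had 1009, 619 and 812 with aldosterone, against 596, 795 and 806 with vehicle, a log2 difference of 0.13 (standard error 0.265). Orc2, another subunit of that complex, had 503, 897 and 771 with aldosterone, against 994, 713 and 652 with vehicle, with -0.13 (standard error 0.29). Both were dim and their replications disagreed in sign, with log2 differences of 0.71, -0.34 and 0.010 for Orc1 and -0.91, 0.31 and 0.23 for Orc2. Orc4, Orc5 and Orc6 had log2 differences of 0.13, -0.17 and 0.095. A second, very dim Orc5 probe set read 15, 8.1 and 7.3 with aldosterone, against 73.1, 109 and 61.9 with vehicle. It was the only one of the 19 untested member probe sets whose groups did not overlap, where 8.85% of all untested probe sets did not overlap, and the brighter Orc5 probe set did not share that order.

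**Figure D2:**
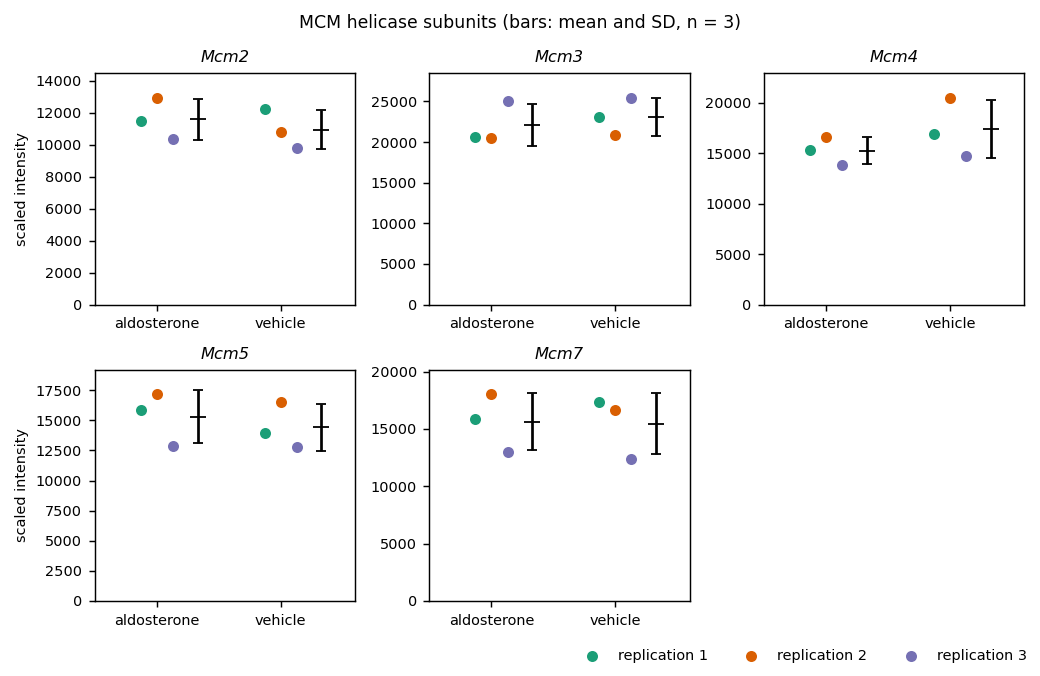
Scaled intensity of 5 MCM subunits on each array (points, coloured by replication; bars, mean and SD of 3 arrays) with aldosterone on the left and vehicle on the right. The treatments overlap in every panel, and replication 3 is the lowest of the 3 in both treatments for Mcm2, Mcm4, Mcm5 and Mcm7 and the highest for Mcm3.

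Genes that fire origins, clamp the polymerase and supply nucleotides gave 5 tested probe sets, 3 higher and 2 lower by sign, none past the test. Pcna, the sliding clamp of DNA polymerases, had 24743, 18795 and 25036 with aldosterone, against 25621, 21962 and 23452 with vehicle, a log2 difference of -0.060 (standard error 0.14). Cdc45, the helicase cofactor, had 4485, 4764 and 3583 with aldosterone, against 4098, 4898 and 3388 with vehicle, with 0.056 (standard error 0.183). The treatments overlapped for both genes. Rrm1 and Rrm2 encode the large and small subunits of ribonucleotide reductase, which makes deoxyribonucleotides. Rrm1 had 7670.2, 8066 and 8715 with aldosterone, against 7168, 8041 and 7609.8 with vehicle, a log2 difference of 0.099 (standard error 0.126), and Rrm2 had 10582, 10435 and 9634 with aldosterone, against 12451, 9162 and 9814 with vehicle, with -0.025 (standard error 0.145). Rrm1 was higher in all 3 replications, by 0.097, 0.004 and 0.19, and Rrm2 was not. Cdc7, which phosphorylates the MCM ring, differed by 0.073.

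Cyclins, kinases and the phosphatase of G1/S and S phase gave 7 tested probe sets of 5 genes, 5 higher and 2 lower by sign, none past the test. Ccna2, the cyclin of S phase and G2, had 15902, 16073 and 21716 with aldosterone, against 17849, 14409 and 20705 with vehicle, a log2 difference of 0.020 (standard error 0.173). Ccne1, the cyclin that activates Cdk2 at the G1/S transition, had 2161, 2591 and 1750.3 with aldosterone, against 2252, 1624 and 2001 with vehicle, with 0.14 (standard error 0.204). Neither order of arrays separated the treatments: Ccne1 was higher with aldosterone in replication 2 and lower in the other two. The brighter probe set of Cdk2 had 6078, 5835 and 6791 with aldosterone, against 6509.7, 4793 and 6807 with vehicle, and its log2 differences were 0.060 and, in the dimmer probe set, -0.070. The brighter probe set of Cdk4, the partner of D-type cyclins, had 23732, 28239 and 23379.6 with aldosterone, against 23616, 27209.8 and 21843 with vehicle, a log2 difference of 0.053 (standard error 0.13) that was positive in all 3 replications, while the dimmer one gave -0.005. The 2 probe sets of Cdk2 and of Cdk4 thus differed in sign. Ccne2 was too dim to test, with 326, 201 and 369.9 with aldosterone, against 329, 182 and 390.2 with vehicle.

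CDK inhibitors gave 8 tested probe sets of 7 genes, 5 higher and 3 lower by sign, and 0 past the test. Their median log2 difference was 0.096. Cdkn2a encodes the Cdk4 inhibitor p16 and, from another reading frame, the p53 activator Arf. It had 1596, 2975 and 1825 with aldosterone, against 1136, 2577 and 1099 with vehicle, or 2132 ± 739 with aldosterone and 1604 ± 843 with vehicle (SD, n = 3 each), a log2 difference of 0.46 (standard error 0.347). It was higher with aldosterone in all 3 replications, by 0.47, 0.20 and 0.70, and the groups overlapped, replication 2 being the highest in both treatments. Its unadjusted p was 0.216, or 0.0191 in the blocked fit. Cdkn1a, the p53 target p21, had 2644, 4405 and 2509 with aldosterone, against 1771, 3460.5 and 2554 with vehicle in one probe set, a log2 difference of 0.29 (standard error 0.282). In the other it had 2748, 4092 and 2357 with aldosterone, against 2906, 2863 and 2230.2 with vehicle, with 0.17 (standard error 0.222). Both probe sets were higher with aldosterone in 2 of 3 replications, but not in the same 2. Cdkn1c, or p57, had 464, 474 and 653 with aldosterone, against 389, 642 and 589 with vehicle, with -0.012 (standard error 0.305), and Cdkn1b, or p27, was too dim to test in both its probe sets. The inhibitors Cdkn2b, Cdkn2c and Cdkn2d and the phosphatase Cdkn3 had log2 differences of 0.023, -0.096, 0.19 and -0.029.

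E2F factors gave 6 tested probe sets of 4 genes, 2 higher and 4 lower by sign, and 0 past the test. E2f1, an activator of S phase genes, had 1287, 1107 and 948 with aldosterone, against 1239, 1767 and 1627 with vehicle in its brighter probe set, a log2 difference of -0.45 (standard error 0.215) with an unadjusted p of 0.0652. The dimmer one had 666, 822 and 1035 with aldosterone, against 738, 1245 and 1172 with vehicle, with -0.29 (standard error 0.273). Both were lower on average, the dimmer one in all 3 replications and the brighter one in 2 of 3, and in each the groups overlapped. The brighter one is 1 of 11 tested member probe sets whose suffix is not the plain _at. Probes of such sets can match several transcripts. These sets include the brighter Mcm3 probe set, all Plk1 and E2f8 probe sets and the Bub1 probe set at 0.32. E2f3 and E2f5 differed by 0.072 and -0.034, and the 2 probe sets of the repressor E2f8 by 0.14 and -0.12. Among the checkpoint kinases, Chek1, which holds back Cdk1 when forks stall, had 3078, 2979 and 3065 with aldosterone, against 3175, 3683 and 3057 with vehicle, with -0.11 (standard error 0.148), and Chek2 differed by 0.014. Wee1, the kinase that inhibits Cdk1, had 2382, 1822 and 2833 with aldosterone, against 1659, 1528 and 2589 with vehicle, a log2 difference of 0.29 (standard error 0.244). It was higher in all 3 replications, by 0.51, 0.25 and 0.13, with overlapping groups.

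**Figure D3:**
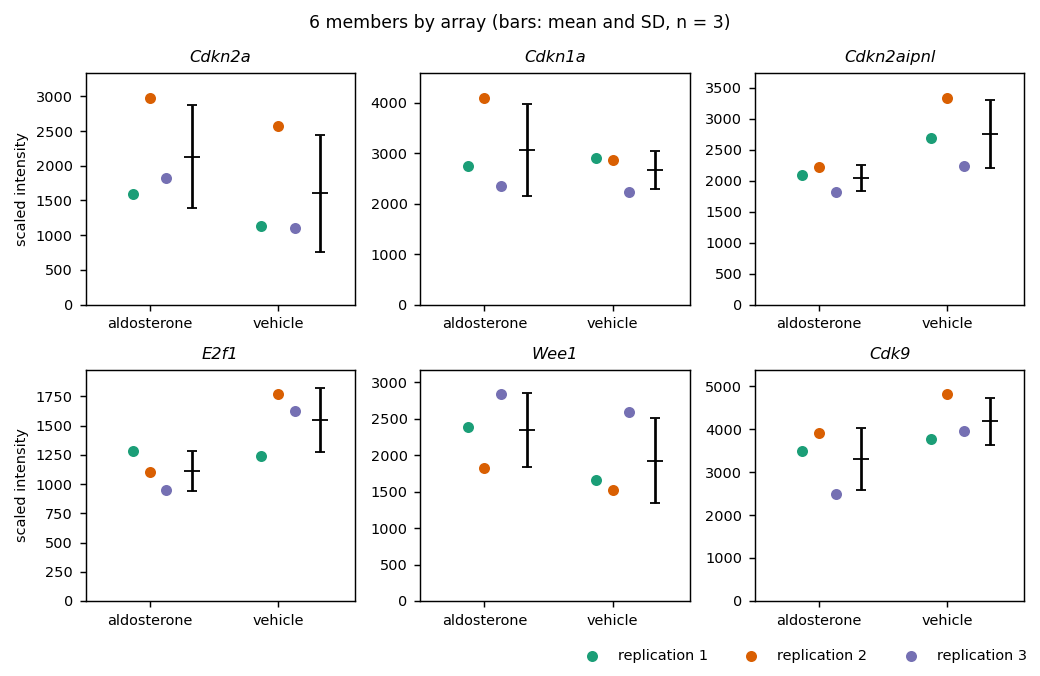
Scaled intensity of Cdkn2a, Cdkn1a, Cdkn2aipnl, E2f1, Wee1 and Cdk9 on each array (points, coloured by replication; bars, mean and SD of 3 arrays), aldosterone on the left and vehicle on the right, for the brightest probe set of each gene. Only Cdkn2aipnl has all 3 aldosterone arrays, at 1811 to 2213, below all 3 vehicle arrays, at 2230.3 to 3331; replication 2 is the highest in both treatments for Cdkn2a.

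The genes of mitotic entry gave 10 tested probe sets, 4 higher and 6 lower by sign, and 0 past the test. Cdk1, the kinase that drives mitosis, had 22859, 19876 and 27946 with aldosterone, against 22728, 19981 and 25810.0 with vehicle, a log2 difference of 0.038 (standard error 0.154). Its cyclin Ccnb2 had 21067, 22165 and 26617 with aldosterone, against 20843, 23761 and 24224 with vehicle, with 0.017 (standard error 0.129). These bright probe sets were close within each replication, at 0.008, -0.008 and 0.12 for Cdk1. Aurka, the Aurora kinase of spindle poles, had 4240.4, 4132 and 3776 with aldosterone, against 4491, 4034 and 4073 with vehicle, with -0.052 (standard error 0.139). Aurkb, the Aurora kinase of the chromosomal passenger complex, had 5994, 6502 and 7049 with aldosterone, against 5952, 5655 and 7111 with vehicle, with 0.066 (standard error 0.145), and Birc5, or survivin, a subunit of that complex, had 6623, 5867 and 6440.2 with aldosterone, against 6656, 6006 and 7541 with vehicle, with -0.089 (standard error 0.14). The treatments overlapped for all of these, and Birc5 was lower in all 3 replications, at -0.007, -0.034 and -0.23. Plk1, the Polo-like kinase, had 3 probe sets, of which the brightest had 6972, 7920.0 and 6740.0 with aldosterone, against 6737, 8255 and 6398 with vehicle, with 0.021 (standard error 0.147). The others gave log2 differences of -0.081 and -0.21, and the second of these was lower in all 3 replications. The phosphatase Cdc25c, which activates Cdk1, gave -0.051 and -0.14.

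The spindle checkpoint and the anaphase-promoting complex gave 9 tested probe sets of 7 genes, 3 of them of Bub1, and 0 passed the test. By sign 8 were higher and 1 lower, where 49.9% of all tested probe sets were higher. Their median log2 difference was 0.12, against -0.00029 over all tested probe sets. Bub1, a checkpoint kinase at kinetochores, had 4349, 3933 and 6907 with aldosterone, against 4284, 3999 and 5979 with vehicle in its brightest probe set, a log2 difference of 0.068 (standard error 0.236). Its other probe sets gave 0.32 (standard error 0.279) and 0.066 (standard error 0.321). All 3 were positive and none was so in every replication. Bub3, its partner, had 9264, 8728 and 9953 with aldosterone, against 8723, 7507 and 8882 with vehicle in its tested probe set, with 0.15 (standard error 0.131). That probe set was higher in all 3 replications. The other Bub3 probe set, too dim to test, went the opposite way, with 408.7, 204 and 149.9 with aldosterone, against 422.1, 382 and 528.4 with vehicle. It was lower in all 3 replications, with a log2 difference of -0.77. Cdc26, a subunit of the anaphase-promoting complex, was higher in all 3, at 0.22. Ttk, the kinase that starts checkpoint signalling, had 2842, 2783 and 3326 with aldosterone, against 3071, 2550.2 and 2603 with vehicle, with 0.12 (standard error 0.16). Cdc20, the activator of that complex, had 10766, 11706 and 10876 with aldosterone, against 11468, 10988 and 13459 with vehicle, with -0.10 (standard error 0.128), the single tested probe set of the role that was lower. Further subunits, Cdc16 and Cdc23, differed by 0.15 and 0.019. With arrays or replications left out, the signs of Cdc23, Cdc20 and the Bub1 probe sets at 0.068 and 0.066 did not hold. Those of Ttk and of the Bub1 probe set at 0.32 did.

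Among the 21 tested probe sets of other members, whose symbols share the prefixes but which were placed in none of the roles above, 9 were higher and 12 lower by sign and 0 passed. The genes named here were chosen after their values were seen. Cdkn2aipnl had 2097, 2213 and 1811 with aldosterone, against 2692, 3331 and 2230.3 with vehicle, a log2 difference of -0.41 (standard error 0.19) and an unadjusted p of 0.0591, the smallest of the 81 tested members. Its groups did not overlap, the only case among the 81 members (1.23%), where 4.17% of all tested probe sets had groups that did not overlap. Cdk9, the kinase that releases paused RNA polymerase II, had 3483, 3902 and 2495 with aldosterone, against 3769, 4807 and 3956 with vehicle, with -0.35 (standard error 0.196), and Cdk7, the kinase of TFIIH, had 569.8, 936 and 897 with aldosterone, against 872, 1247 and 999 with vehicle, with -0.37 (standard error 0.263). Cdk9 and Cdk7 were lower in all 3 replications and overlapped between groups. Cdc5l, a splicing factor, had log2 differences of 0.34, higher in all 3 replications, and -0.11, lower in all 3, in its 2 probe sets. Across the 12 genes with several tested probe sets, these had one sign in 7.

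Some of these genes differed between the repeats of the experiment. Limma's F test between replications, with treatment in the model, called 7 of the 81 members (8.64%) at an adjusted p under 0.05, where 7.82% of all tested probe sets were called, so the share of members was near the background. Of the 7, 4 were highest in replication 3 (4.94% of members, 2.82% of all tested probe sets) and 3 in replication 2 (3.70% and 1.96%), and 0 were highest in replication 1 (0% and 3.05%). The highest replication exceeded the lowest by a median of 1.28-fold over members and 1.29-fold over all tested probe sets.

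The 4 members called that were highest in replication 3 act in S phase, G2 and mitosis. Bub1 read 4349, 3933 and 6907 with aldosterone and 4284, 3999 and 5979 with vehicle, so that replication 3 was 1.61-fold above the lowest replication (adjusted p = 0.0238 by limma's F test). Cdc23, a subunit of the anaphase-promoting complex, read 1716, 1623 and 2932 with aldosterone and 2025, 1362 and 2840.0 with vehicle, a span of 1.91-fold (adjusted p = 0.036). For both, the replication 3 arrays were the highest of all 6. Cdk1, with the values given above, spanned 1.35-fold (adjusted p = 0.0398) and Ccna2 spanned 1.39-fold (adjusted p = 0.0492). The replication 2 arrays were the lowest for Cdk1 in both treatments, and for Ccna2 with vehicle but not with aldosterone, where replication 1 was lower. The other Bub1 probe sets were also highest in replication 3 without passing, at adjusted p of 0.124 and 0.394.

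The 3 members called that were highest in replication 2 were the CDK inhibitors Cdkn2a and Cdkn1a and the helicase subunit Mcm7. Cdkn2a read 2975 with aldosterone and 2577 with vehicle there, and 1825 or less on the other 4 arrays (span 2.02-fold, adjusted p = 0.0252 by limma's F test). Cdkn1a was at 4405 with aldosterone and 3460.5 with vehicle there in one probe set (span 1.78-fold, adjusted p = 0.0424), and in its other probe set the span was 1.48-fold and did not pass (adjusted p = 0.145). Mcm7 was also highest in replication 2 by its mean and lowest in replication 3 (span 1.36-fold, adjusted p = 0.0451). The MCM subunits did not share an order: Mcm2, Mcm4, Mcm5 and Mcm7 were lowest in replication 3 in both treatments, while both probe sets of Mcm3 were highest there. Of these only Mcm7 passed, with adjusted p of 0.266 for Mcm2, 0.0943 for Mcm4, 0.0735 for Mcm5, and 0.125 and 0.0511 for Mcm3.

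**Figure D4:**
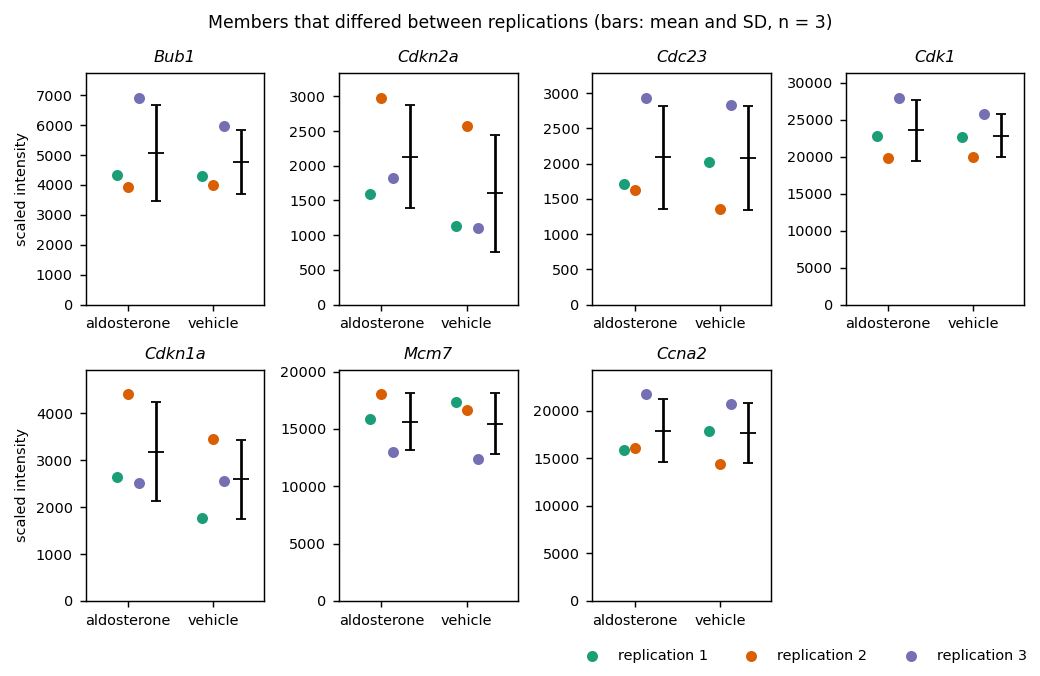
Scaled intensity on each array (points, coloured by replication; bars, mean and SD of 3 arrays) of the 7 member probe sets that differed between replications, aldosterone on the left and vehicle on the right. Replication 3 is highest in both treatments for Bub1, Cdc23, Cdk1 and Ccna2, and replication 2 is highest in both for Cdkn2a and Cdkn1a; the treatments overlap in all 7 panels.

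These calls rest on few arrays and on the fit. Without the intensity trend the F test called 0 members and 2 of all tested probe sets. It called 0 members without either array of replication 1, and 2 without the aldosterone array and 4 without the vehicle array of replication 3. For replication 2 it called 13 without the aldosterone array and 6 without the vehicle array. With replication alone in the model 8 members were called, but Cdkn2a (adjusted p = 0.0507 by limma's F test) and Cdkn1a (0.0536) were not, and with no filter Cdk1 was not (0.0511). Over all tested probe sets the same left-out arrays gave 100 and 44 calls (aldosterone and vehicle array of replication 1), 591 and 587 (of replication 3) and 1292 and 943 (of replication 2).

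The promoters of Bub1 and Cdk1, which were highest in replication 3, and of 3 MCM subunits that took opposite orders are shown. The sequences are RefSeq's, of build GRCm38.p6, from 250 bases before to 30 bases after the most upstream start listed for the gene, read 5′ to 3′ on the gene's strand. Capitals mark letters matching 3 motifs on either strand: the E2F motif TTTNNCGC with C or G at each N, the CCAAT box CCAAT, which NF-Y binds, and the CHR element TTTGAA, known from promoters of late cell cycle genes. The E2F matches upstream in Mcm5 overlap each other, and the downstream one in Mcm7 shares a base with a CCAAT match.
Bub1 (chr2:127831830-127832109, - strand): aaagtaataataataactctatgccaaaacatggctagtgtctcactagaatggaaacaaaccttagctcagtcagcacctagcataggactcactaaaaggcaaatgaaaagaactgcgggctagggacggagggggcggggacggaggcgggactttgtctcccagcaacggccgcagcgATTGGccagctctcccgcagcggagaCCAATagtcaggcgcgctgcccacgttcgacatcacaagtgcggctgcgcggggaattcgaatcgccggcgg
Cdk1 (chr10:69352883-69353162, - strand): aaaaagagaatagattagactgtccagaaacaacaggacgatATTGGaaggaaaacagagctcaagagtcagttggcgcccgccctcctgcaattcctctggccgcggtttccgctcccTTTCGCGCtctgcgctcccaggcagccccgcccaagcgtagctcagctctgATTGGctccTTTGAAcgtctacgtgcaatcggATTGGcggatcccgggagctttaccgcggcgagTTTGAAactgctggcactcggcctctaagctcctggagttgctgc
Mcm3 (chr1:20820283-20820562, - strand): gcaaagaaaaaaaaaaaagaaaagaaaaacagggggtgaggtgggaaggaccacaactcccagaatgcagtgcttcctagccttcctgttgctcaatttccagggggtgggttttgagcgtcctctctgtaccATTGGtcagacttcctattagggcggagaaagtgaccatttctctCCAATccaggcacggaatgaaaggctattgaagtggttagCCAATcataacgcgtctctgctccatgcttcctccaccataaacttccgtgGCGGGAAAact
Mcm5 (chr8:75109259-75109538, + strand): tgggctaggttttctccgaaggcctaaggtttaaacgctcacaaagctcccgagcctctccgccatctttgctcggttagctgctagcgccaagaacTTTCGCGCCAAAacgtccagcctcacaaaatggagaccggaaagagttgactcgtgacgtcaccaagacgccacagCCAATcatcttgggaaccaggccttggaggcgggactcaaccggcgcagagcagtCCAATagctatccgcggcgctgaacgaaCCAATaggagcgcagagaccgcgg
Mcm7 (chr5:138171854-138172133, - strand): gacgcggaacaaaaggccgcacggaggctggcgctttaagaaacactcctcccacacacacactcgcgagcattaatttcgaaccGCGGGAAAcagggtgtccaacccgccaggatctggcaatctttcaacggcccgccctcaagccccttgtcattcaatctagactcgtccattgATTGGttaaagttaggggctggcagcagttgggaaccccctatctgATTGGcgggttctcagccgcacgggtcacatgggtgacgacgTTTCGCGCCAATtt

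In these windows Cdk1 held 2 CHR matches, the closer one ending 10 bases before the start, with 3 CCAAT matches and 1 E2F match. Bub1 held 2 CCAAT matches and neither of the other motifs. Mcm3 held 1 E2F match and 3 CCAAT matches, and Mcm5 and Mcm7 each held 2 E2F and 3 CCAAT matches. A link between these matches and the order of the replications was not tested. Of the 75 member genes, 63 had a promoter in the table. All shares were counted in the same window of 250 bases before to 30 after the start. The E2F letters were in 12 of the 63 (19.0%), where 3.56% of the 6572 promoters of genes with a probe set on the array and 2.18% of all 27025 promoters held them. CCAAT was in 40 of the 63 (63.5%, against 37.6% and 36.7%), and TTTGAA was in 13 (20.6%, against 12.6% and 17.4%). A match is a run of letters and not a measured binding site.

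The order of the mitotic members was set beside the other genes of mitosis on the array. Of the 19 tested member probe sets with mitotic roles, 12 (63.2%) were highest in replication 3 by the mean of both arrays, where 36.2% of all tested probe sets were. Counted with 1 probe set a gene this was 9 of 14 genes (64.3%). The 19 include Bub1, with 3 probe sets, Cdc23 and Cdk1, whose calls prompted the count. Other roles also exceeded the share over all tested probe sets, at 6 of 12 for origin licensing, 3 of 6 for E2F factors and 4 of 8 for CDK inhibitors (50.0% each), and all members together were at 42.0%. Below that share were the checkpoint kinases and Wee1, at 1 of 3 (33.3%), and the other members, at 3 of 21 (14.3%). Genes of the replication fork and nucleotide supply that are not members were near it, at 12 of 33 (36.4%). No test set the mitotic share apart from these. Of 31 tested mitotic genes that are not members, 21 (67.7%) were highest in replication 3, and 7 of the 31 (22.6%, where 7.82% of all tested probe sets did) passed the F test between replications. That background was not matched for brightness. With the filter at the 60th percentile, which keeps only brighter probe sets, 692 of 4969 passed. Of the 18 tested genes on the list of further cell cycle regulators, 9 (50.0%) were highest there. Ect2, a factor of cytokinesis, read 11834, 8646 and 15013 with aldosterone and 13586, 10055 and 15036 with vehicle (span 1.61-fold, adjusted p = 0.0128 by limma's F test). Smc4, a condensin subunit, read 28066, 20228 and 30473 with aldosterone and 30940.4, 20496 and 28218 with vehicle (span 1.45-fold, adjusted p = 0.0137), and was lowest in replication 2 in both treatments but highest in replication 1 by its mean.

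The order was also counted within each treatment. Among the 19 mitotic member probe sets, replication 3 was the highest of the aldosterone arrays for 11 and of the vehicle arrays for 12, and of both for 9 (47.4%, where 20.3% of all tested probe sets were highest in replication 3 in both). Among the 31 other mitotic genes it was the highest of the aldosterone arrays for 22, of the vehicle arrays for 18 and of both for 15 (48.4%). Among the 18 further cell cycle regulators it was the highest of both for 9 (50.0%). For the 33 tested genes of the replication fork and nucleotide supply this count was 6 (18.2%). In the mitotic genes that are not members the median log2 difference, replication 3 minus replication 2, was 0.25 on the aldosterone arrays and 0.17 on the vehicle arrays, and that of the mitotic members was 0.125 and 0.24, where that of all tested probe sets was -0.005 and 0.026. Over all tested probe sets replication 3 was the highest of the aldosterone arrays for 34.2% and of the vehicle arrays for 35.7%. Of the 7 tested epithelial markers 0 were highest in replication 3, and Cldn4 and Cldn7 differed between replications (adjusted p = 0.000381 and 0.00094 by limma's F test), both lowest in replication 3. The part of these marker differences in the order of the mitotic genes was not tested.

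**Figure D5:**
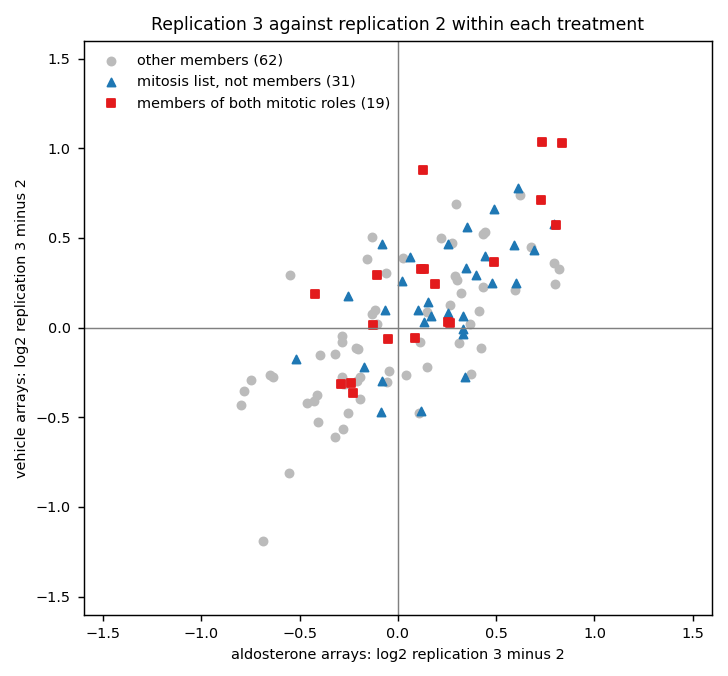
Log2 difference of replication 3 minus replication 2 on the aldosterone arrays (horizontal axis) and on the vehicle arrays (vertical axis) for mitotic members (squares), other genes of mitosis (triangles) and other members (grey circles). Of the mitotic members 11 of 19, and of the other mitotic genes 20 of 31, lie above 0 on both axes, where 34.8% of all tested probe sets did, as did 10 of 18 further cell cycle regulators, which are not drawn.

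Other genes of the same processes, with 1 probe set a gene in each list, gave no call with aldosterone either. The 3 lists held 80 tested genes, of which 2, Top2a and Cks1b, stood in 2 lists. Of 43 listed enzymes of the replication fork and nucleotide supply, 35 were on the array and 33 were tested, with 0 past the test and 0 at an unadjusted p under 0.05. By sign 18 were higher and 15 lower, and the median was 0.011. Rpa2, a subunit of the single-strand binding protein RPA, differed by -0.26 (standard error 0.187) and Mcm10, a replication initiation factor, by -0.27 (0.2), both lower in all 3 replications. Of 31 tested genes of mitosis 16 were higher and 15 lower by sign, the median was 0.002 and 0 passed. Foxm1, a transcription factor of G2 genes, differed by 0.23 (0.152) and Cdca8, a passenger complex subunit, by 0.097 (0.137). Of 29 further cell cycle regulators 18 were tested, 9 higher and 9 lower by sign and 0 past the test, with Ccnd3, a D-type cyclin, at -0.21 and the cyclin Ccng2 at -0.15. Between replications 5 of the 33 (15.2%) and 2 of the 18 (11.1%) passed, where 7.82% of all tested probe sets did, a background not matched for brightness. Hells, a chromatin remodeller of the SNF2 family, spanned 2.18-fold (adjusted p = 0.0051 by limma's F test) and was highest in replication 3. Pold2, a subunit of DNA polymerase delta, spanned 1.47-fold (0.0232), Gadd45a, a p53 target, 1.74-fold (0.0265), and Anapc5, a subunit of the anaphase-promoting complex, 1.31-fold (0.0488). Unlike Hells, Pold2, Gadd45a and Anapc5 were lowest in replication 3 by the mean of both arrays.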

How the data were processed

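Total RNA of mIMCD3 cells gave 6 cRNA samples, 3 per treatment, each hybridized once, per the labels. The authors deposited linear intensities per probe set. The sources used here do not give their software or scaling. The 2% trimmed mean was 86.5 on the aldosterone array of replication 3 and 2488 to 2493 elsewhere. Each array was therefore multiplied to 2090, by 0.838 to 24.2, and log2(value + 53.0) was taken, with the 10th percentile as pseudocount. Probe sets with a mean at or above the 40th percentile (8.87) were tested, 7453 of 12422. The number of arrays limits the precision. The labels do not say that replications were separate cultures, so p-values measure the spread between these arrays.

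Treatments were set against each other in limma 3.58.1 under R 4.3.3 (lmFit, eBayes with intensity trend, two-sided, group alone; Benjamini-Hochberg over all tested probe sets, threshold 0.05). The replication entered as a block in an alternative, since the labels make a replication 1 experiment and the deviations of its arrays correlated at 0.377, 0.387 and 0.471. The F test between replications had treatment as covariate. Simulated data had 7453 probe sets, with 100 changed by each amount. There the fit on group alone recovered 75.5% of probe sets changed by 1 and 99.3% of those changed by 2 on the log2 scale, with 10.5 false calls per simulation. The F test recovered 84.3% and 100% of those changed in 1 replication, with 14.6 false calls per simulation. With 100 changed probe sets the adjusted threshold is easier to pass than where few change. In the measured data 0 of 7453 were called with aldosterone. The recovery on group alone therefore does not give how often a lone changed member would be called.

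Genes were named only for the 10833 probe sets with 1 annotated symbol (396 had several, 1193 none); RefSeq changed 0 symbols. Of a gene's probe sets the brightest tested one was taken where a gene was needed once. Members, role lists and pathway lists were chosen with earlier results of these data known. By rule, values were given for a fixed set of members and for up to 12 that differed between replications; further members were named to complete a role or after their values were seen. Alternatives were other normalization, pseudocounts, filters, no trend, the block, replication alone in the F test, and arrays or replications left out.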

Additional observations from a re-analysis of the deposited data

How the results depend on the processing

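The count of members called with aldosterone stayed at 0 under quantile normalization, both other pseudocounts, no filter, the filter at the 60th percentile, no intensity trend, the replicate block, the plain two-sample test, each array or replication left out, and the replicate block joined with no trend or with the filter at the 60th percentile, both chosen after seeing the data. At an unadjusted p under 0.05 there were 3 members with the replicate block, alone or joined with another choice, and 0 or 1 in the other fits. The block changed no other call. The median log2 difference of members, 0.019, was 0.019 with the replicate block and -0.019 (without vehicle replicate 2) to 0.038 with arrays or replications left out. The count that moved one way in all 3 replications was 17 to 26 with other filters and 20 with other scaling or pseudocounts. The count that differed between replications, 7, was 8 with replication alone in the model, 0 without the intensity trend and 0 to 13 with an array left out, as given above, and the cause was not tested. Directions of single members were not stable, since 28 of 41 probe sets changed sign on leaving out an array or a replication. Cdkn1c turned to 0.017 after quantile normalization. With arrays or replications left out, log2 differences were -0.001 to 0.163 for Aurkb, -0.176 to 0.243 for the brightest Bub1 probe set, -0.232 to 0.297 for the next Bub1 probe set, -0.127 to 0.142 for Ccna2, -0.083 to 0.085 for Ccnb2, -0.123 to 0.3 for Ccne1 and -0.198 to 0 for Cdc20. They were -0.246 to 0.27 for Cdc23, -0.077 to 0.186 for Cdc45, -0.078 to 0.113 for Cdc6, -0.092 to 0.154 for Cdk1, -0.172 to 0.104 for the dimmer Cdk2 probe set, -0.097 to 0.154 for the brighter Cdk2 probe set and -0.105 to 0.11 for the dimmer Cdk4 probe set. They were also -0.034 to 0.139 for the brighter Cdk4 probe set, -0.056 to 0.335 for the brighter Cdkn1a probe set, -0.211 to 0.181 for Cdkn1c, -0.004 to 0.168 for Mcm2, -0.253 to 0.022 for the dimmer Mcm3 probe set, -0.161 to 0.005 for the brighter Mcm3 probe set and -0.004 to 0.202 for Mcm5. The remaining ones were -0.132 to 0.143 for Mcm7, -0.163 to 0.36 for Orc1, -0.344 to 0.268 for Orc2, -0.137 to 0.075 for Pcna, -0.052 to 0.131 for the brightest Plk1 probe set, -0.354 to 0.208 for the next Plk1 probe set and -0.13 to 0.106 for Rrm2. The other 13 probe sets kept their sign there. With 3 arrays a group, and steps of 2.42 scaled units on the aldosterone array of replication 3, shifts of dim members were not resolved.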
